A study of Mus musculus with 7 samples.

Results

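Semaphorins and their plexin and neuropilin receptors were examined in cells sorted from the embryonic mouse bowel. Genes were taken by symbol: the semaphorins Sema3a to Sema7a, the plexins Plxna1 to Plxnd1, the neuropilins Nrp1 and Nrp2, and the plexin-domain genes Plxdc1 and Plxdc2. The rule found 33 genes among the 19938 tested, each read from its brightest probe set with a single gene symbol: 20 semaphorins, 11 receptors (9 plexins and 2 neuropilins) and 2 plexin-domain genes. RNA came from 7 microarrays, 4 of YFP-positive and 3 of YFP-negative cells, all from whole bowel of embryos at embryonic day 17.5 that carried both Wnt1-Cre and the R26R-EYFP reporter. Wnt1-Cre is a recombinase driven by a promoter active in the early neural crest, and the reporter makes the yellow fluorescent protein EYFP in every descendant of a cell in which Cre has acted. The YFP-positive fraction is therefore labelled as enteric neural crest-derived cells (ENCDC), the cells that build the nerve network of the gut. The YFP-negative fraction is labelled non-ENCDC and holds the other cells of the bowel wall. The sources used here give no strain, sex, litter or number of embryos per sample. The p-values thus rest on the spread among these arrays alone, which may be technical.

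Semaphorins are a family of secreted and membrane-bound guidance proteins that mostly repel, and in some settings attract, growing axons and migrating cells. Plexins are their transmembrane receptors. Most secreted class 3 semaphorins bind a neuropilin, which has a short cytoplasmic tail and passes the signal through a plexin of the A group, while membrane-bound classes 4 to 7 bind plexins directly. Activated plexins act on small GTPases and on collapsin response mediator proteins, which reshape microtubules and actin in the growth cone. In the bowel, semaphorins are known for effects on extrinsic axons that enter the wall and on enteric neural crest cells, and the human genes SEMA3C and SEMA3D have been linked to Hirschsprung disease, in which the distal bowel lacks enteric neurons.

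The sort was checked on markers of both fractions. Ret, the receptor tyrosine kinase of enteric precursors, lay between 9.41 and 9.90 on the log2 scale on YFP-positive arrays and between 5.99 and 6.58 on YFP-negative arrays. Sox10, a factor of precursors and glia, and Elavl4, a neuronal RNA-binding protein, were likewise higher in YFP-positive cells, by 2.52 ± 0.15 and 4.69 ± 0.23 (log2 difference ± SE). Mean levels of markers of other cells were read in both fractions. No detection calls were used, so a mean level does not show that a cell type was present. Array medians over all genes lay between 5.87 and 5.92. The mean level of 7 smooth muscle markers ran from 7.86 to 9.72 on YFP-positive arrays and from 10.02 to 10.47 on YFP-negative arrays, and that of 8 fibroblast and mesenchyme markers from 7.18 to 8.33 on YFP-positive and from 9.21 to 9.75 on YFP-negative arrays. The 9 myeloid markers averaged 5.71 to 6.74 on YFP-positive and 9.62 to 9.84 on YFP-negative arrays, and the 9 epithelial markers 7.89 to 8.96 on YFP-positive and 8.47 to 8.56 on YFP-negative arrays. Within the YFP-positive group the smooth muscle, fibroblast, myeloid and epithelial means were all higher on arrays 3 and 4 than on arrays 1 and 2. In sorted bulk samples, fewer cells of a type and less RNA per cell cannot be told apart.

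Of 11 receptors, 5 were higher in YFP-positive cells (plexins A2, A3, A4, B1 and B3) and 3 were lower (Plxnc1, Plxnd1 and Nrp1) at a limma adjusted p under 0.05, where 8.39% of all genes tested were higher and 9.11% lower. Of 20 semaphorins, Sema3b, Sema3c, Sema3e and Sema4g were higher and Sema3a, Sema3d, Sema3f and Sema5a lower. Both plexin-domain genes were lower. The median absolute log2 difference was 0.95 over the receptors and 0.36 over the semaphorins, against 0.14 over all genes. The signed medians were close to 0, at 0.05 for receptors, -0.05 for semaphorins and 0.01 for all genes, since higher and lower members were nearly balanced. Ranges were separate for 11 of the 33 genes with the YFP-positive arrays above and for 9 with them below, where each kind made up 13.5% of all genes.

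**Figure D1:**
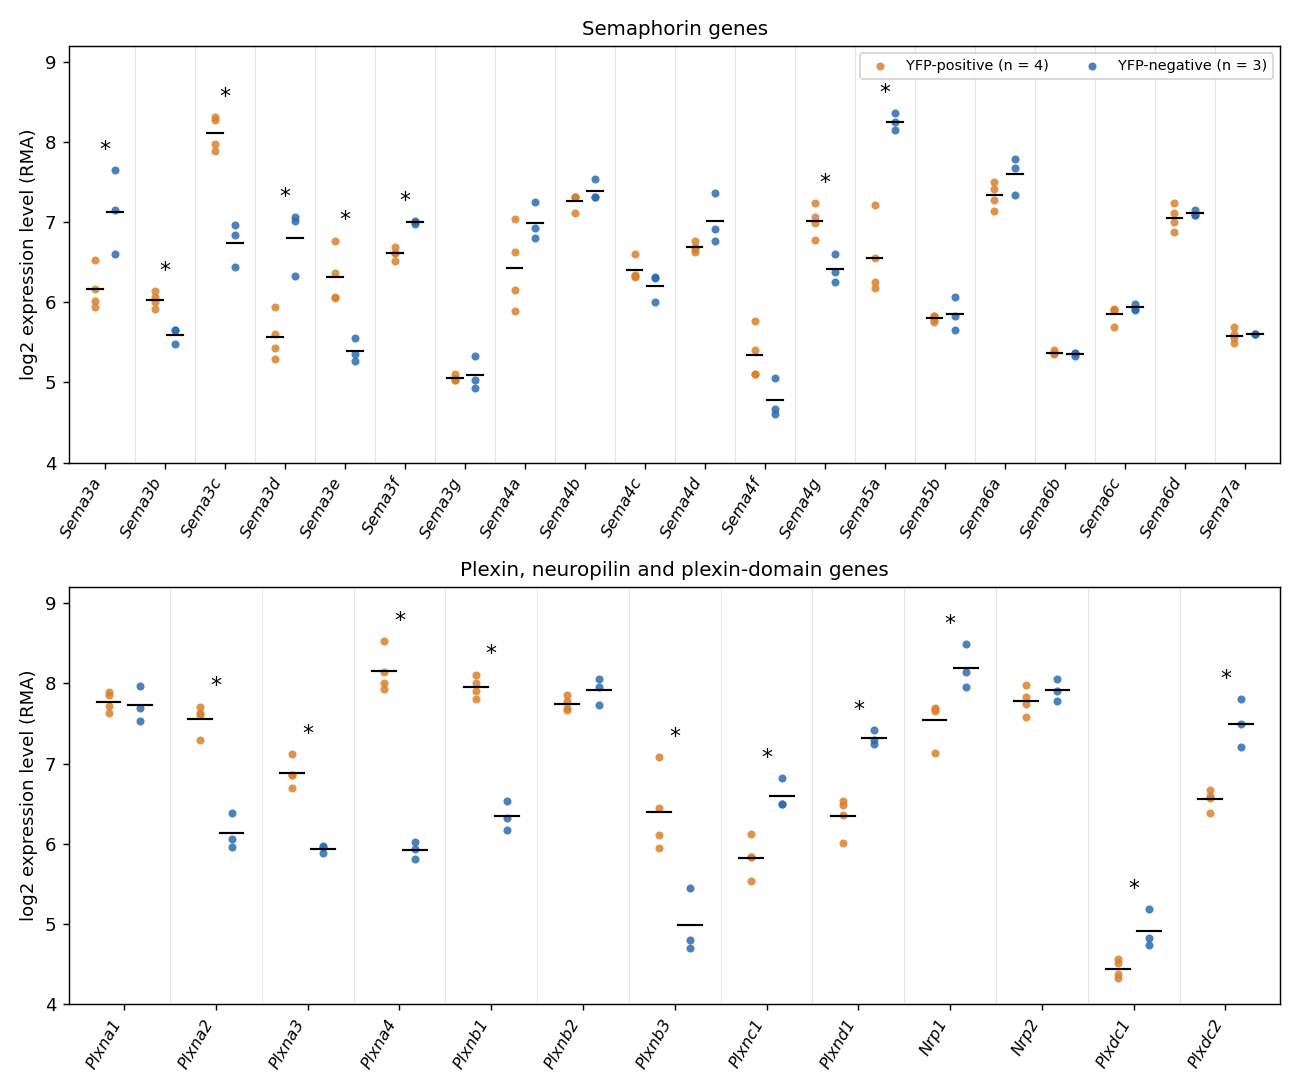
Log2 expression level of each of the 33 genes on every array, with YFP-positive arrays in orange on the left and YFP-negative arrays in blue on the right of each gene; black lines are group means and asterisks mark a limma adjusted p under 0.05. Plxna4 and Sema3c lie higher in YFP-positive cells with no overlap, and Sema5a and Sema3d lie lower with no overlap. Probe sets differ in brightness, so heights compare within a gene, not between genes.

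Class 3 semaphorins, the secreted ligands of neuropilins, went in both directions. Of 7 measured, 3 were higher, 3 were lower and 1 did not pass, where 8.39% of all genes tested were higher and 9.11% lower. Sema3c, which acts through both neuropilins, had log2 levels of 8.28, 8.31, 7.97 and 7.89 on YFP-positive arrays 1 to 4, against 6.84, 6.96 and 6.44 on YFP-negative arrays 1 to 3. Every YFP-positive array lay above every YFP-negative array. The gene was 2.58-fold higher in YFP-positive cells, with a log2 difference of 1.37 ± 0.16 (SE) and a limma adjusted p of 0.00141.

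Sema3d, a repellent of several axon types, had the opposite pattern. Its log2 levels were 5.29, 5.61, 5.43 and 5.94 on the YFP-positive arrays, against 7.06, 7.01 and 6.33 on the YFP-negative arrays. The groups did not overlap, and the gene showed a 2.35-fold decrease in YFP-positive cells (log2 difference -1.23 ± 0.22 SE, limma adjusted p = 0.00929). Sema3a, the founding collapsin that repels axons bearing Nrp1, had levels of 5.94, 6.17, 6.02 and 6.53 on YFP-positive arrays and 7.65, 7.15 and 6.60 on YFP-negative arrays. Its highest YFP-positive value came close to its lowest YFP-negative value. The log2 difference was -0.96 ± 0.25 (SE, limma adjusted p = 0.0414), and it lost its call when any of arrays 1, 2 and 3 of the YFP-positive group or arrays 1 and 2 of the YFP-negative group was left out, with an adjusted p of up to 0.127.

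Sema3e, which binds Plxnd1 without a neuropilin, had levels of 6.77, 6.06, 6.37 and 6.07 on YFP-positive arrays, against 5.55, 5.36 and 5.27 on YFP-negative arrays. It was 1.90-fold higher in YFP-positive cells (log2 difference 0.92 ± 0.18 SE, limma adjusted p = 0.0139). Its highest level was on YFP-positive array 1, and the call was lost without YFP-negative array 2 or 3 (limma adjusted p = 0.0607 and 0.0506). Sema3b and Sema3f, ligands that prefer Nrp2, differed by less. Sema3b averaged 6.03 ± 0.09 in YFP-positive cells and 5.60 ± 0.10 in YFP-negative cells (SD, n = 4 and 3) and was higher by 0.44 ± 0.08 (log2 difference ± SE). Sema3f had 6.51, 6.62, 6.62 and 6.69 on YFP-positive arrays, against 7.0, 7.01 and 6.98 on YFP-negative arrays, and was lower, with a log2 difference of -0.39 ± 0.06 (SE). Sema3g, a ligand of Nrp2 known from blood vessels, had a log2 difference of -0.04 with a 95% confidence interval of -0.27 to 0.20.

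Class 3 genes that lie near each other in the genome moved together in some pairs and apart in others. In the RefSeq gene order of assembly GRCm38.p6, Sema3d, Sema3a, Sema3e and Sema3c follow each other on chromosome 5. No annotated protein-coding gene separates Sema3d from Sema3a, 3 separate Sema3a from Sema3e, and 15 separate Sema3e from Sema3c. The first pair was lower and the second pair higher in YFP-positive cells. Sema3b and Sema3f lie on chromosome 9 with 3 protein-coding genes between them (Gnai2, Slc38a3 and Gnat1), where Sema3b was higher and Sema3f lower.

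The promoter letters of the chromosome 5 quartet are shown because these 4 related neighbours split by direction, with Sema5a and Plxnb1 added as members of the largest decrease and of a large increase. Each run is the 250 bases before the annotated start on the gene's strand, from RefSeq (GRCm38.p6), and capitals mark matches to GGGCGG or its reverse complement CCGCCC, the core of a GC box.
Sema3d (chr5:12382916-12383165, plus strand): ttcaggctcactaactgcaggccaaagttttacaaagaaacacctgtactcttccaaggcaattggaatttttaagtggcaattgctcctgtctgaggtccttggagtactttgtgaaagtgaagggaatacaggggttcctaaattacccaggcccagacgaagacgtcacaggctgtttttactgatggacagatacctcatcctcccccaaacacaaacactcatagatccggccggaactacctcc
Sema3a (chr5:13396534-13396783, plus strand): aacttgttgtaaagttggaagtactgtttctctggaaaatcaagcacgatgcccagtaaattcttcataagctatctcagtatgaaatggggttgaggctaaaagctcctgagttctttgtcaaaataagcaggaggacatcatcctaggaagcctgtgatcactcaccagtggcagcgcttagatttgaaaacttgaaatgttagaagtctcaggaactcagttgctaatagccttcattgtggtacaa
Sema3e (chr5:14025026-14025275, plus strand): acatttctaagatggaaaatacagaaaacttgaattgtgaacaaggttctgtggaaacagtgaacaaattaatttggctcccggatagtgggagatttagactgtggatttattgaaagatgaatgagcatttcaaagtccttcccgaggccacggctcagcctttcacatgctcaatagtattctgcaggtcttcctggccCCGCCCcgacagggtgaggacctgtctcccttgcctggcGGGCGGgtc
Sema3c (chr5:17574566-17574815, plus strand): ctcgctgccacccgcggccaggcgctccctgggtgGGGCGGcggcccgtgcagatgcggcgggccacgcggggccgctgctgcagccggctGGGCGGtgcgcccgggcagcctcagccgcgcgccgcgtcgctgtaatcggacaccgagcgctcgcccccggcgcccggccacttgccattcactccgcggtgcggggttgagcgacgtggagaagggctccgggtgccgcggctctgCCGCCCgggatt
Sema5a (chr15:32244563-32244812, plus strand): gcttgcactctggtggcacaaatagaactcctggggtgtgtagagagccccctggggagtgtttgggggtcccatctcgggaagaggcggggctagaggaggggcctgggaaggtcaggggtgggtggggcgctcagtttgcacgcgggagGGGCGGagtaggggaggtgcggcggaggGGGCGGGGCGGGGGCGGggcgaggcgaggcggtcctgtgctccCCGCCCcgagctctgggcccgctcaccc
Plxnb1 (chr9:109095186-109095435, plus strand): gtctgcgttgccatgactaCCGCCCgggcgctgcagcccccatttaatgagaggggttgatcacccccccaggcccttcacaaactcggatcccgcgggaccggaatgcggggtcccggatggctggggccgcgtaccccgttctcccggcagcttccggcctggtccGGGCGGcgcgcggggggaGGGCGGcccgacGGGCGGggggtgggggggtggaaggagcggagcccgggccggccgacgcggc

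The windows of Sema3d and Sema3a, both lower in YFP-positive cells, held 46.8% and 40.8% G or C and 0 GC box cores. Those of Sema3e and Sema3c, both higher, held 48% and 78.4% G or C with 2 and 3 cores. Sema5a, which was lower, had 72% G or C and 5 cores, and Plxnb1, which was higher, had 75.2% and 4, so the letters of these 6 windows did not sort by direction. RefSeq promoters were found for 26 of the 33 genes, with 37 windows in all. GGGCGG on either strand was present in 27 of the 37, or 73%, against 42.6% of 21263 windows of protein-coding genes. The median G or C content was 64% in the 37 windows and 55.6% in all, and no test of the shares was made. TATAAA on either strand was found in 0 of the 37 and in 11.6% of all windows. Matches of GGGCGG can share bases with each other, as a pair of those in Sema5a does, and each was counted. A match is a description of the letters only.

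Membrane-bound semaphorins of classes 4 to 7 passed at a share near that of all genes, so their count is no result about these classes. Of 13 measured, Sema4g was higher and Sema5a lower in YFP-positive cells, where 17.5% of all genes passed in either direction. Sema5a, a transmembrane ligand with thrombospondin repeats that binds Plxnb3, had levels of 6.26, 6.18, 6.55 and 7.21 on YFP-positive arrays, against 8.25, 8.36 and 8.15 on YFP-negative arrays. The YFP-negative arrays lay close together, and array 4 stood highest among the YFP-positive ones. The 3.26-fold decrease in YFP-positive cells (log2 difference -1.71 ± 0.24 SE, limma adjusted p = 0.00327) was the largest of the 33 genes. Sema4g averaged 7.02 ± 0.19 in YFP-positive cells and 6.41 ± 0.17 in YFP-negative cells (SD, n = 4 and 3), a log2 difference of 0.61 ± 0.13 (SE, limma adjusted p = 0.0165). That call was lost when array 1 of the YFP-positive group, or array 1 or 2 of the YFP-negative group, was left out, with an adjusted p of up to 0.0695.

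Sema4a, which is known from immune cells, had levels of 5.89, 6.15, 6.63 and 7.04 on YFP-positive arrays 1 to 4, against 6.93, 6.80 and 7.25 on YFP-negative arrays. YFP-positive array 4 lay inside the YFP-negative range and arrays 1 and 2 well below it. The log2 difference of -0.57 ± 0.28 (SE) did not pass (limma adjusted p = 0.226). Without YFP-positive arrays 3 and 4 the difference was -0.98 ± 0.17 (SE) and passed (limma adjusted p = 0.0302). Those arrays held the higher YFP-positive values of Sema4a, so leaving them out had to widen the decrease. The reason for the spread among the YFP-positive arrays was not tested. Sema4f, whose levels of 5.77, 5.40, 5.11 and 5.11 on YFP-positive arrays lay above 4.61, 4.67 and 5.06 on YFP-negative arrays, had a log2 difference of 0.56 ± 0.19 (SE) and did not pass either (limma adjusted p = 0.0937).

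Sema4d, the ligand of Plxnb1 first described on T cells, was measured by a pair of probe sets that disagreed in sign. The brighter probe set gave a log2 difference of -0.33 ± 0.14 (SE) and the dimmer one 0.28 ± 0.13 (SE), and neither passed. Sema4b and Sema4c, of which Sema4c binds Plxnb2, had log2 differences of -0.12 ± 0.09 and 0.19 ± 0.11 (SE). Sema5b, the other class 5 gene, stood at -0.05 with a 95% confidence interval of -0.28 to 0.18. Class 6 genes, whose proteins bind plexins of the A group, and Sema7a, a membrane-anchored ligand of Plxnc1 and of an integrin, all lay between -0.27 (Sema6a) and 0.02 (Sema6b). The 95% confidence interval of Sema6a ran from -0.58 to 0.05, so a decrease of about 1.5-fold was not outside it. Sema6b had a pair of probe sets with identical values on every array.

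**Figure D2:**
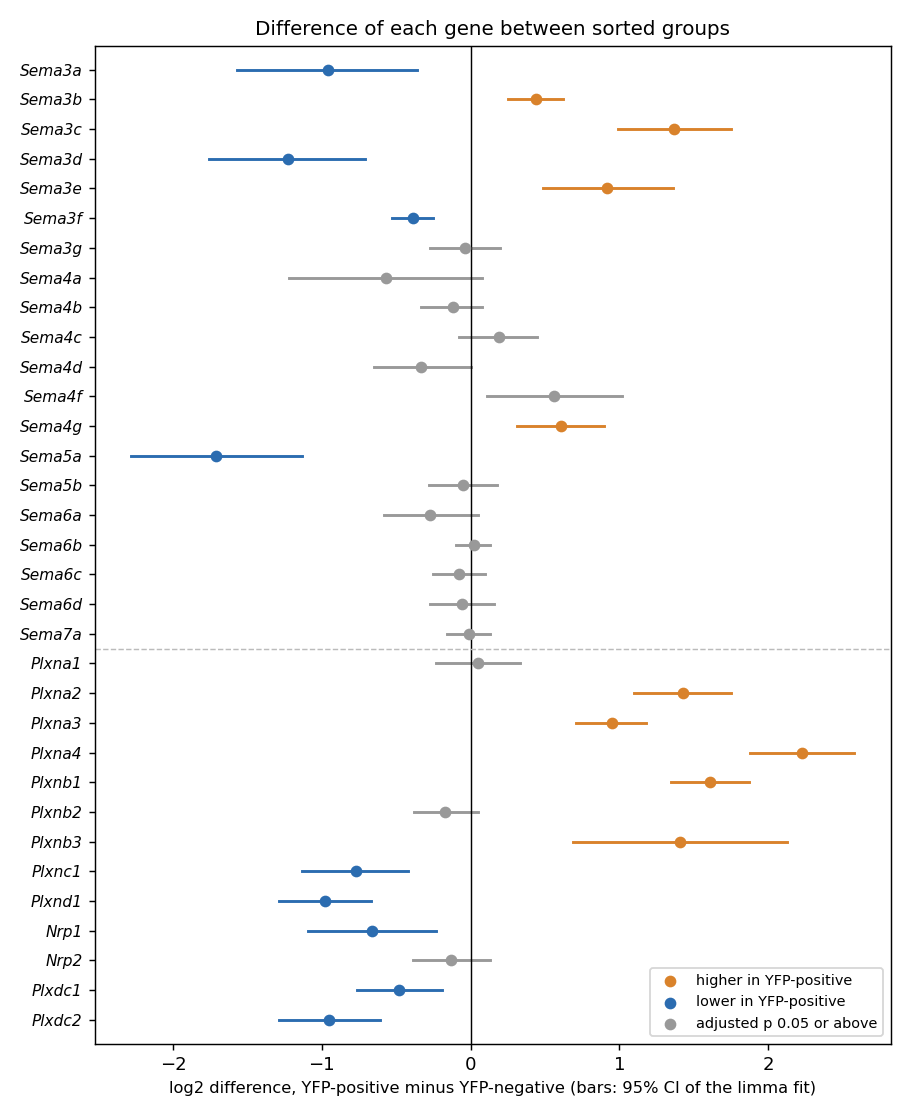
Log2 difference of each gene, YFP-positive minus YFP-negative, with the 95% confidence interval of the limma fit; orange is higher, blue lower and grey an adjusted p of 0.05 or above. Class 3 semaphorins spread from -1.23 to 1.37, class 6 and 7 semaphorins stay between -0.27 and 0.02, and plexins run from -0.98 (Plxnd1) to 2.23 (Plxna4).

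Plexins of the A group carry the signal of class 3 semaphorins bound to neuropilins and of class 6 semaphorins. They were higher in YFP-positive cells in 3 of 4 cases, where 8.39% of all genes tested were higher. Plxna4, a receptor for Sema3a with Nrp1 and for class 6 semaphorins, had levels of 8.53, 7.93, 8.14 and 8.0 on YFP-positive arrays, against 5.93, 5.81 and 6.02 on YFP-negative arrays. Every YFP-positive array lay far above every YFP-negative one. The 4.70-fold increase was the largest of the 33 genes (log2 difference 2.23 ± 0.15 SE, limma adjusted p = 0.000133). Plxna2, the receptor of Sema6a, had 7.71, 7.29, 7.61 and 7.63 on YFP-positive arrays, against 5.96, 6.06 and 6.38 on YFP-negative arrays, a 2.69-fold increase (1.43 ± 0.14 SE, limma adjusted p = 0.000592). Plxna3, which serves Sema3f with Nrp2, averaged 6.89 ± 0.18 in YFP-positive cells and 5.94 ± 0.05 in YFP-negative cells (SD, n = 4 and 3) and was 1.93-fold higher. Plxna1, a receptor for Sema6d that is also used by dendritic cells, had levels of 7.63 to 7.89 on YFP-positive arrays and 7.53 to 7.97 on YFP-negative arrays. Its ranges overlapped fully, with a log2 difference of 0.05 and a 95% confidence interval of -0.23 to 0.33.

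Of the B group, Plxnb1 and Plxnb3 were higher in YFP-positive cells. Plxnb1, the receptor of Sema4d, had levels of 8.11, 7.80, 7.90 and 8.01 on YFP-positive arrays, against 6.17, 6.32 and 6.53 on YFP-negative arrays. It was 3.05-fold higher (log2 difference 1.61 ± 0.11 SE, limma adjusted p = 0.000144), and its promoter is among the sequences above. Plxnb3, the receptor of Sema5a, was more variable, at 7.08, 6.11, 5.95 and 6.44 on YFP-positive arrays, against 4.70, 4.80 and 5.45 on YFP-negative arrays. The groups did not overlap, and the log2 difference was 1.41 ± 0.30 (SE, limma adjusted p = 0.0190). Leaving out array 4 of the YFP-positive group, or array 1 or 2 of the YFP-negative group, ended the call, with an adjusted p of up to 0.0821. Plxnb2, the receptor of Sema4c, averaged 7.75 ± 0.08 in YFP-positive cells and 7.91 ± 0.16 in YFP-negative cells (SD, n = 4 and 3), a log2 difference of -0.17 with a 95% confidence interval of -0.38 to 0.05.

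Plxnd1 and Plxnc1, plexins known best from endothelium and from immune cells, were lower in YFP-positive cells. Plxnd1, which binds Sema3e, had levels of 6.53, 6.01, 6.36 and 6.48 on YFP-positive arrays, against 7.30, 7.24 and 7.42 on YFP-negative arrays. It was 1.97-fold lower (log2 difference -0.98 ± 0.13 SE, limma adjusted p = 0.00255). Plxnc1, which binds Sema7a, averaged 5.83 ± 0.24 in YFP-positive cells and 6.60 ± 0.19 in YFP-negative cells (SD, n = 4 and 3) and was 1.71-fold lower (-0.77 ± 0.15 SE, limma adjusted p = 0.0120). Markers of those cell types were read beside them. The 8 endothelial markers averaged 5.12 to 5.45 on YFP-positive and 5.56 to 5.82 on YFP-negative arrays, with 2 lower, 1 higher and 5 not past the threshold, and all 9 myeloid markers were lower. Among all genes tested, 8.39% were higher and 9.11% lower. The part of these markers in the plexin differences was not tested.

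Neuropilin probe sets read above the array medians of all genes in both fractions. Probe sets differ in brightness and no detection calls were used, so this does not show expression in either fraction. Nrp1, the receptor of Sema3a that also binds VEGF-A, had levels of 7.66, 7.68, 7.13 and 7.69 on YFP-positive arrays, against 8.49, 8.14 and 7.96 on YFP-negative arrays. The log2 difference of -0.66 ± 0.18 (SE) passed narrowly (limma adjusted p = 0.0496) and did not pass in any of the 7 fits that left out 1 array, where the adjusted p reached 0.147. Nrp2, the receptor of Sema3b and Sema3f, ranged from 7.58 to 7.98 on YFP-positive arrays and from 7.78 to 8.06 on YFP-negative arrays. The ranges overlapped, with a log2 difference of -0.13 and a 95% confidence interval of -0.39 to 0.13.

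The plexin-domain genes encode membrane proteins that share a short domain with plexins and are not semaphorin receptors; Plxdc1 was first described in tumour vessels. Plxdc2 had levels of 6.67, 6.59, 6.57 and 6.38 on YFP-positive arrays, against 7.80, 7.49 and 7.21 on YFP-negative arrays, and was 1.93-fold lower (log2 difference -0.95 ± 0.14 SE, limma adjusted p = 0.00422). Plxdc1 averaged 4.44 ± 0.11 in YFP-positive cells and 4.91 ± 0.23 in YFP-negative cells (SD, n = 4 and 3). Its level was near the lower quartile of all genes, which lay between 4.46 and 4.58 on the arrays. The difference of -0.48 ± 0.12 (SE, limma adjusted p = 0.0360) passed without YFP-negative array 1 but not without any other array.

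Set side by side as ligands and the receptors they are known to bind, some pairs had opposite signs and others the same sign. Sema5a had a log2 difference of -1.71 and Plxnb3 of 1.41. Sema3a stood at -0.96 and Nrp1 at -0.66, while Plxna4, their signalling partner, stood at 2.23. Sema3e stood at 0.92 and Plxnd1 at -0.98. Sema3f stood at -0.39, with Nrp2 at -0.13 and Plxna3 at 0.95. For Sema4d and Plxnb1, Sema6a and Plxna2, and Sema7a and Plxnc1, the ligand did not pass and the receptor did, at 1.61, 1.43 and -0.77. Sema3c was higher at 1.37, with its receptors Nrp1 at -0.66 and Nrp2 at -0.13. Plexins of the A group, which carry the signal of neuropilin-bound class 3 semaphorins, ran from 0.05 (Plxna1) to 2.23 (Plxna4). Plxna2 among them stood at 1.43, the same sign as Sema3c. Sema3d, another class 3 ligand, stood at -1.23, the same sign as both neuropilins. The pairs were chosen with these values known, and no test of a pair was made.

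The YFP-positive arrays differed among themselves both in marker levels and in levels of some of the 33 genes. Among the 9 genes lower in YFP-positive cells, 5 had their highest YFP-positive value on array 4, where smooth muscle, fibroblast, myeloid and epithelial markers were also highest. These were Sema5a, Sema3a, Sema3d, Sema3f and Nrp1, the last with 7.69 there and 7.68 on array 2. Another 3 (Plxnc1, Plxnd1 and Plxdc2) were highest on array 1, and Plxnc1 and Plxdc2 were lowest on array 4. Among the 9 higher genes, 6 were highest on array 1, where the 7 enteric neuron markers averaged 9.65, against 9.59, 9.38 and 9.13 on arrays 2, 3 and 4. Of the YFP-negative arrays, array 3 had the lowest values of 6 of the 9 lower genes (Sema3a, Sema3d, Sema3f, Sema5a, Nrp1 and Plxdc2) and the highest of the other 3 (Plxnc1, Plxnd1 and Plxdc1). Among YFP-negative arrays it had the lowest mean of fibroblast markers, 9.21 against 9.74 and 9.75, and of smooth muscle, pericyte and mesothelium markers. The mean of 2 erythroid markers was highest there, at 8.87 against 5.78 and 7.54 on YFP-negative arrays 1 and 2. That of 3 mast cell markers was also highest there, at 7.29 against 6.66 and 6.71. The part of these markers in the differences was not tested.

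Without YFP-positive arrays 3 and 4, all 18 called genes kept their direction, and 5 of 9 higher and 5 of 9 lower genes had a larger difference at 2 decimals. Fewer passed, 5 higher and 4 lower, in a fit with 5 arrays. The higher ones were Plxna2, Plxna3, Plxna4, Plxnb1 and Sema3c. The lower ones were Plxnd1, Sema3d, Sema3f and Sema5a, the last with a log2 difference of -2.04 ± 0.09 (SE). Sema5a had its higher YFP-positive values on arrays 3 and 4, so its decrease had to widen.

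**Figure D3:**
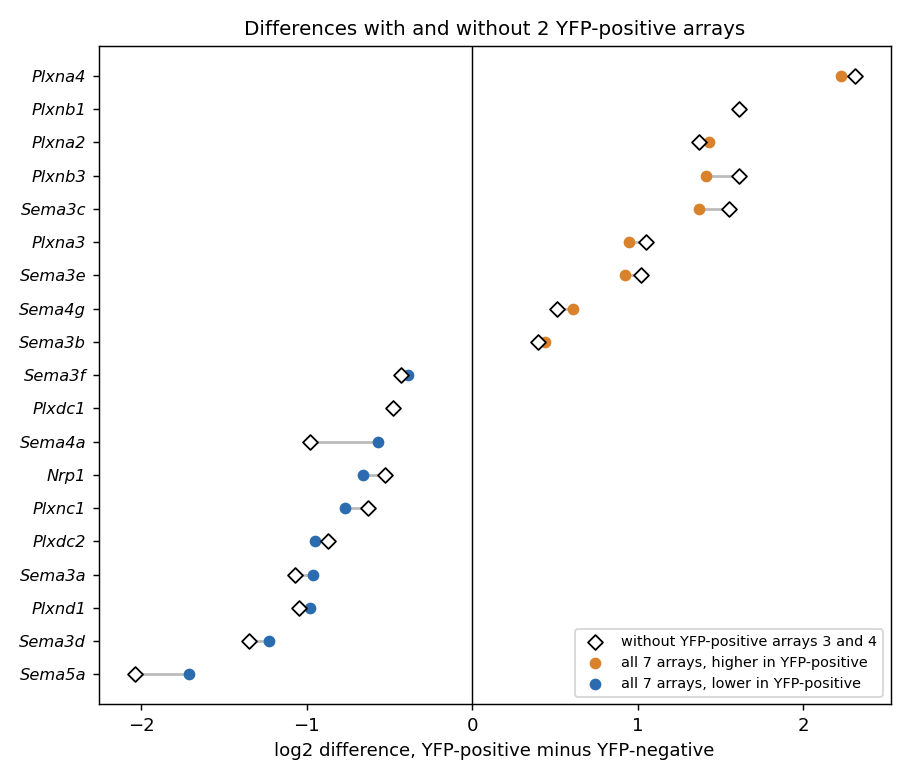
Log2 difference, YFP-positive minus YFP-negative, of the 18 genes past the threshold and of Sema4a, with all 7 arrays (filled circles) and without YFP-positive arrays 3 and 4 (open diamonds). Sema4a and Sema5a, whose higher YFP-positive values were on the arrays left out, move farthest from 0, to -0.98 and -2.04. No gene changes sign.

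**Figure D4:**
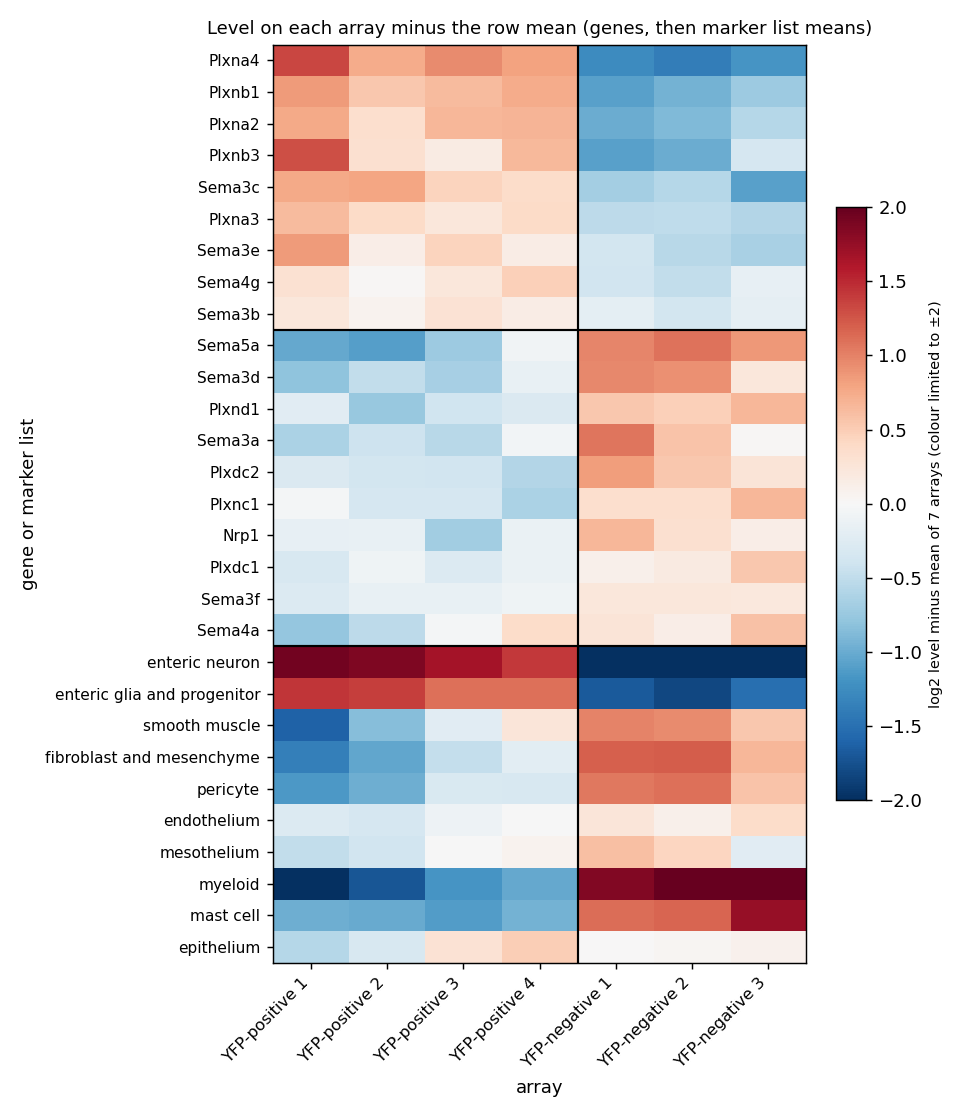
Log2 level on each array minus the mean of the row over 7 arrays, for the 9 genes higher in YFP-positive cells, the 9 lower ones with Sema4a below them, and the means of 10 marker lists. Colours are limited to ±2. Within the YFP-positive group the smooth muscle, fibroblast and myeloid rows are lowest on array 1 and highest on array 4, as is Sema4a, while Plxna4 and Plxnb1 lie above their row mean on all 4.

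Genes that act with semaphorin receptors were read from lists that hold none of the 33 genes. Of 16 co-receptors and alternative semaphorin receptors, 4 had higher and 5 had lower levels in the YFP-positive fraction, with a median log2 difference of -0.25. Over all genes tested, 8.39% were higher and 9.11% lower. The higher ones were led by the adhesion molecules Chl1 (4.26 ± 0.15), L1cam (3.54 ± 0.25) and Nrcam (2.87 ± 0.18, log2 difference ± SE), which associate with neuropilins in Sema3a and Sema3b signalling. Kdr, the VEGF receptor that pairs with Nrp1, was higher by 0.86 ± 0.09 (SE), at 6.15 to 6.22 on YFP-positive and 5.12 to 5.45 on YFP-negative arrays, although it is also an endothelial marker. Tyrobp, the myeloid adaptor that works with Plxna1 and Trem2, had the largest decrease (-3.87 ± 0.32), followed by Ptk7 (-0.68 ± 0.13), Itga1, the integrin subunit that binds Sema7a (-0.62 ± 0.15), and Trem2 (-0.44 ± 0.10).

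Intracellular effectors of plexins were higher in 9 and lower in 6 of 29 cases, with a median log2 difference of 0.23. For this and the short lists below, the shares over all genes tested were 8.39% higher and 9.11% lower. All 5 collapsin response mediator genes were among the higher ones. Crmp1 had levels of 8.46, 8.44, 8.15 and 8.17 on YFP-positive arrays, against 4.97, 4.74 and 5.22 on YFP-negative arrays (log2 difference 3.33 ± 0.14 SE). Dpysl3 (3.24 ± 0.12), Dpysl5 (2.49 ± 0.18) and Dpysl4 (1.86 ± 0.09) followed, and Dpysl2, named after its values were seen, rose by 1.10 ± 0.12 (log2 difference ± SE). Lower effectors were led by the Rac-inactivating protein gene Sh3bp1 (-1.44 ± 0.13), the myeloid kinase gene Fes (-1.01 ± 0.08), and Rras (-0.93 ± 0.21) and Rap1b (-0.58 ± 0.07), GTPases on which plexins act. Of 5 VEGF family genes, whose products share neuropilins with semaphorins, Vegfc (-0.78 ± 0.16) and Vegfd (-1.37 ± 0.30) were lower and 0 higher (also 0 at an unadjusted limma p under 0.05). Furin, the convertase that cleaves class 3 semaphorins, was lower (-0.70 ± 0.09), the only one of 4 convertases to pass.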

How the data were processed

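Expression was measured on 7 Affymetrix mouse gene arrays, 4 YFP-positive and 3 YFP-negative. Per the labels' protocols, cells were sorted by fluorescence, and RNA was extracted with Trizol and amplified with a kit suited to small amounts. The deposited values are log2 levels per probe set. The submitters' processing notes name RMA and the Affymetrix Expression Console as what the authors used, without versions. The sources do not say whether all arrays went through RMA together. RMA equalizes distributions and, with its median polish, can give several arrays the same value. In 6525 of 19938 genes (32.7%), and in 4 of the 33, at least 3 arrays shared a value, which can understate the spread. No detection calls were used, so differences of dim genes can be understated.

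Of 35556 probe sets, 21789 had 1 gene symbol in the platform annotation and 1621 had several. In 999 genes, several probe sets competed, and the brightest on average was kept. All 33 genes matched the RefSeq table (GRCm38.p6) by Entrez identifier. Columns were tied to samples by their names (0 without a match). Groups were compared over all 19938 genes with lmFit and eBayes of limma 3.58.1 in R 4.3.3, group as the only term, and Benjamini-Hochberg adjustment with a threshold of 0.05. Python 3.11.15 with pandas 2.3.3 and matplotlib 3.10.9 made tables and figures. The fit was also run on simulated data, with an outcome that is not given here. That simulation used independent normal noise, so it does not check the fit under shared values among arrays. Differences are YFP-positive minus YFP-negative. The 33 genes, the lists and the alternatives were chosen with earlier results of these data known. Every one of the 33 genes is named, and of each pathway list up to 4 genes past the threshold in each direction, with Ret, Sox10 and Elavl4 as markers. Marker lists for pericytes, mesothelium, interstitial cells of Cajal, erythroid and mast cells were also read: 5 of 5, 1 of 5, 2 of 3, 1 of 2 and 3 of 3 of these genes were lower in YFP-positive cells, and 1 of 3 markers of interstitial cells of Cajal was higher. All 7 neuron and all 6 glia and progenitor markers were higher, all 8 fibroblast and 3 of 7 smooth muscle markers were lower, and 0 of 9 epithelial markers passed (0 higher and 1 lower at an unadjusted limma p under 0.05). The shares over all genes tested were 8.39% higher and 9.11% lower. Some listed genes are not analysed here.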

Additional observations from a re-analysis of the deposited data

Results flagged for a closer look

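Single arrays that stood apart were searched for among the 4 YFP-positive arrays with Dixon's gap ratio, the gap of the extreme array to its neighbour over the whole range, against its 95% critical value. Chance flags about 1 in 20 groups, and 4 of 33 genes were found. Nrp1 had a ratio of 0.955, from the low value of 7.13 on array 3 against 7.66 to 7.69 on the others. Sema4c had a ratio of 0.937, from 6.60 on array 1 against 6.32 to 6.34. Sema6c had a ratio of 0.922, from 5.69 on array 3 against 5.91 to 5.92. Sema4b had a ratio of 1.0, since arrays 2, 3 and 4 stood at 7.31 and array 1 at 7.11. Sema4b and Sema6c are among the 4 genes in which 3 arrays share a value.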

How the results depend on the processing

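Each gene was refitted under 17 alternatives (16 for Plxdc1, which the filter on low values removes). All 18 called genes kept their direction in every one, 12 kept their call in every fit without 1 array, and 5 (Plxna2, Plxna4, Plxnb1, Sema3c and Sema5a) in every alternative. Against a fold of 1.5, 469 genes were higher and 558 lower, with 1 semaphorin higher and 1 lower, and 3 receptors higher and 0 lower with limma's treat (1 lower at an unadjusted p under 0.05). That test asks for a larger difference and so calls fewer genes. Without YFP-positive arrays 3 and 4, 1 semaphorin was higher and 1 receptor lower; the fit has fewer samples. Leaving out 1 array in turn gave 1202 to 1452 higher and 1166 to 1890 lower genes, the lowest counts without YFP-negative array 2, 2 to 4 higher and 3 to 4 lower semaphorins, and 4 to 5 higher and 2 lower receptors. Higher semaphorins numbered 2 without YFP-negative array 2 (Sema3e and Sema4g lost).

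Deviations of same-numbered arrays from their group means had correlations of 0.0084, -0.0862 and 0.038 over genes. For differently numbered arrays they ran from -0.1628 to 0.2682. With so few arrays, these values cannot show whether same-numbered fractions came from the same bowels. The main fit took no pairs, and a fit with the replicate number as a block was run beside it. Replicate 4 has only a YFP-positive array, so in the block fit that array adds nothing to the differences. With the replicate block, 1245 genes were higher and 1264 lower, with 4 higher and 4 lower semaphorins and 4 higher and 2 lower receptors. Sema3a, Plxnb3, Plxnc1 and Plxdc1 lost their call in that fit, and Sema4a passed (log2 difference -0.77, limma adjusted p = 0.0323). YFP-positive array 4 held the highest YFP-positive level of Sema4a, 7.04. Leaving out that array without a block gave the same difference of -0.77, which did not pass (limma adjusted p = 0.0727).

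Signs changed only among genes that did not pass. Plxna1 gave -0.0038 with array weights, -0.05 without YFP-positive arrays 3 and 4 and -0.05 without YFP-negative array 1, within -0.05 to 0.16 over the fits without 1 array. Sema3g gave 0.05 with array weights and 0.08 without YFP-negative array 3 (-0.12 to 0.08). Sema5b gave 0.0013 with array weights and 0.06 without YFP-negative array 1 (-0.15 to 0.06). Sema6d gave 0.0026 without YFP-positive array 2 (-0.12 to 0.0026). Sema7a gave 0.02 with arrays centred on their medians, 0.02 when quantile normalized again, 0.0023 with array weights and 0.02 without YFP-positive array 1. Sema4d gave 0.28 with its dimmer probe set. The causes of these changes were not tested. Nrp1 lost its call with centred arrays (adjusted p = 0.0513). Precision is bounded by how few arrays there are.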
